A study of Mus musculus with 10 samples.

Results

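The AP-1 subunits and immediate early genes followed here are 10 genes chosen by name: Fos, Fosb, Jun, Junb and Jund, the related bZIP factor Atf3, and Egr1, Ier2, Ier3 and Ier5. A gene entered the tests when a transcribed unit (TU, a continuous stretch of labelled transcription on 1 strand) carried its symbol and held more than 10 fragments in at least 2 of the 10 libraries. Of the 10 genes, 8 had such a TU by symbol and 7 passed the fragment filter, out of 28459 TUs tested and 40779 deposited. The rule uses names and this filter, although the members were proposed with earlier results of these data known.

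The libraries came from E14 mouse embryonic stem cells of genotype SOX2-FKBP, in which both copies of Sox2 were tagged in a clone selected for its response, so that dTAG-13 sends the SOX2 protein to the proteasome. There were 5 groups of 2 replicates: NT (DMSO, 0 h) and 500 nM dTAG-13 for 0.5, 1, 2 and 6 h, labelled as hours post depletion (hpd) and written here as h. All groups, NT included, grew without serum on gelatin with LIF, 1 µM of the MEK inhibitor PD0325901 and 3 µM of the GSK3 inhibitor CHIR99021, and had their medium refreshed before treatment. Nascent RNA was labelled with 2 mM 4-thiouridine (4SU) for 10 min and enriched before sequencing (TT_chem_seq), so the values follow the synthesis of RNA and not its pool. Untagged cells given dTAG-13 were not analysed here, so loss of SOX2 and other effects of the compound cannot be told apart. The time from the medium change to harvest was not stated for each group, and an effect of fresh medium was not tested.

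AP-1 is a dimer of a Jun protein with a Fos, Jun or ATF protein that binds DNA through paired basic leucine zippers. Its genes belong to the immediate early genes, whose transcription can start within minutes of a stimulus because the factors that drive it are already present, and usually falls again soon after. Growth factor signalling is a classical route to Fos, Egr1 and Ier2, stress kinases act on Jun and Atf3, and LIF acts through STAT3 on Junb in stem cells.

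The promoters of the members that changed over time are shown first, so that their start regions can be set beside the courses that follow. RefSeq promoter sequences (GRCm38.p6, whose positions are those of mm10) were found for 8 of the 10 genes. Each run below holds the 250 bases before the annotated start, 5′ to 3′ on the strand of the gene, for the 4 members called in the joint test over time. Capitals mark the letters TTGCATCA, the composite site that ATF4 and C/EBP proteins can bind. Junb lies at chr8:84978749-84978998 on the minus strand, Atf3 at chr1:191183334-191183583 on the minus strand, Jun at chr4:95052223-95052472 on the minus strand and Ier5 at chr1:155099637-155099886 on the minus strand.
Junb: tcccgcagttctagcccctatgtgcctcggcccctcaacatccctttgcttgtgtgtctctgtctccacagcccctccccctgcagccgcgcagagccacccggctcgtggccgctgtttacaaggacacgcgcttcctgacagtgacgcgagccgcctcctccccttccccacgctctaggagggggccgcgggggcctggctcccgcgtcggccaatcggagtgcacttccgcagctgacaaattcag
Atf3: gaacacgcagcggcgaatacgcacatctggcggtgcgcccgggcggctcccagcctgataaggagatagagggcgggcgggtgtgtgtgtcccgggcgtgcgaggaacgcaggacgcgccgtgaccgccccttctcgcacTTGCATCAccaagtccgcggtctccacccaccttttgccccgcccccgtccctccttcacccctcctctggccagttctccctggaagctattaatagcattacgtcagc
Jun: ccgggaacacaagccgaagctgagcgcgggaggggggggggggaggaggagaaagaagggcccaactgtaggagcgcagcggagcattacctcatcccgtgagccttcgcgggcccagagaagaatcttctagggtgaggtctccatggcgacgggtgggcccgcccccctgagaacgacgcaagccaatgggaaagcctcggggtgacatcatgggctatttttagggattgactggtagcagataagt
Ier5: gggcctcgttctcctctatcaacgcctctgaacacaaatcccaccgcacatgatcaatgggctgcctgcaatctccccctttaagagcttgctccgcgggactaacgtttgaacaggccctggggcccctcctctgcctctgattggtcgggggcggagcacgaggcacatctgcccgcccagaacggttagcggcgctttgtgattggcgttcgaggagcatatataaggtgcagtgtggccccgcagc

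The search covered 6 motifs on both strands of these 250 bases. TTGCATCA was found in 1 of the 8 member promoters, that of Atf3, from 110 to 103 bases before the start, and in 0.791% of 32851 mouse promoters of the same length. The AP-1 site TGACTCA (4.46% of all promoters), the cAMP response element TGACGTCA (1.55%), the CArG box bound by SRF (1.47%), the STAT site TTCNNNGAA (7.02%) and the SOX core CATTGTT (3.29%) were found in 0 of the 8. With 1 match in all no motifs overlapped, and these counts describe exact matches in this window. The GC content of the 8 windows ran from 47.6% in Jund to 68.8% in Fosb, against a median of 52.4% and an upper quartile of 61.2% over all promoters. By RefSeq, Jun, Junb, Jund, Ier2 and Ier5 have a single exon, as do 10.2% of 21000 protein-coding genes, and Fos and Atf3 have 4 exons.

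The TU of a member was not the gene alone. The Fos gene took up 66.9% of its TU, Atf3 67.2%, Jun 58.2%, Ier5 52.2%, Jund 24.0%, Ier2 18.0% and Junb 7.39%. The Junb TU ran for 24883 bp on chromosome 8, from 12156 bp before the start of the 1840 bp gene to 10887 bp past its end, so its counts can include RNA from outside the gene. The Jund TU also covered the annotated start of Iqcn on the same strand. The Ier2 TU began 11 bp after the end of the Nacc1 TU on the same strand, so reads running on from Nacc1 cannot be told apart from Ier2 RNA.

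**Figure D1:**
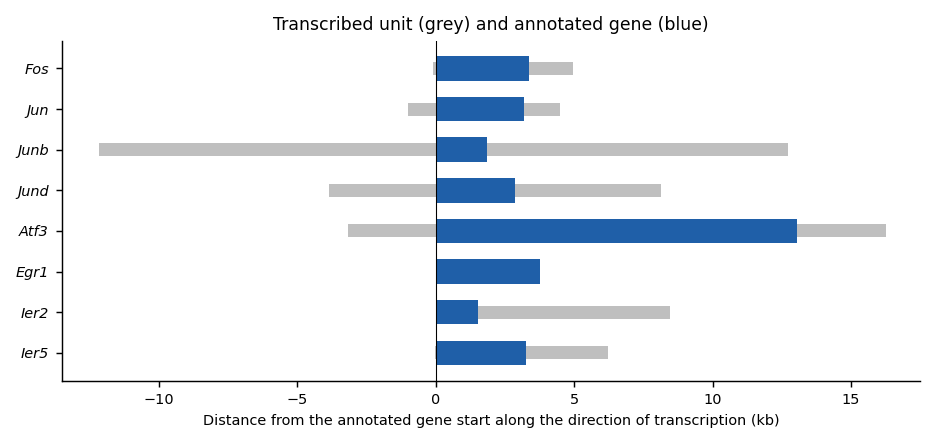
Extent of the TU (grey) and of the annotated gene (blue) for the 8 members with a TU, in kb from the gene start along the direction of transcription. The Junb TU reaches 12156 bp before its gene and the Ier2 TU 6956 bp past its gene, whereas the Egr1 TU stays within its gene.

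Of the 3 genes outside the tests, Egr1, a zinc finger factor that answers strongly to growth factor signalling, was the only one with a TU. It held 5 and 5 fragments in NT, 1 and 3 at 0.5 h, 3 and 6 at 1 h, 1 and 3 at 2 h, and 3 and 4 at 6 h. Scaled to library size, its mean at 0.5, 1, 2 and 6 h was 0.422, 0.757, 0.323 and 0.634 of that in NT. The 1 h group overlapped NT and the others lay below it. No library held more than 6 fragments of Egr1, whereas Jun, with 7 and 5 in NT, held 19 and 25 at 6 h. Egr1 itself was not tested, so no call was made on a fall or a smaller rise. Fosb, a Fos-family subunit, had no TU on either strand. Ier3, a short gene that acts in survival signalling, lay inside the TU named for Flot1, which began 14 bp before it on the same strand, so the reads of the 2 genes cannot be separated. That TU held 10.0 ± 1.93 CPM (fragment counts scaled to library size by TMM; SD, n = 2) in NT, 10.5 ± 1.43 at 0.5 h, 8.73 ± 0.427 at 1 h, 7.17 ± 0.196 at 2 h and 8.97 ± 0.57 at 6 h, and it was not called at any time (lowest adjusted p = 0.0958, at 2 h).

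Library totals ran from 11131490 to 25854106 fragments, and the 2 replicates at 0.5 h stood at these extremes. All 8 embryonic stem cell markers were detected, with a summed level of 3178 to 3502 CPM in NT, 2960 to 3050 CPM at 2 h and 2624 to 2786 CPM at 6 h. The summed markers of fibroblasts (3 of 6 with a TU, with Col1a2, Col3a1 and Twist2 lacking one) stood at 2.56 to 3.05 CPM in NT and at 4.07 to 5.59 CPM at 6 h, and overlapped NT at the other times. Those of endoderm (4 of 5 with a TU) stood at 2.40 to 2.96 CPM in NT and above that range in every depleted library, at 3.395 to 4.50 CPM. The means of Gata6, Sox7 and Sox17 were above NT at every time, with Sox17 under the fragment filter. That of Gata4 was below NT at every time, at 1.04 CPM in NT and 0.778 to 0.882 after. The summed markers of trophoblast (3 of 5 with a TU) stood at 39.5 to 46.4 CPM in NT, at 35.4 to 35.5 CPM at 2 h and at 24.7 to 28.5 CPM at 6 h, with Tfap2c making up most of the sum. Its mean was 40.5 CPM in NT and 22.9 at 6 h, whereas that of Eomes was 2.42 CPM in NT, 6.94, 7.52 and 8.40 at 0.5, 1 and 2 h, and 3.33 at 6 h. Their part in the results was not tested. In these bulk samples a smaller number of cells transcribing a gene and less RNA per cell cannot be told apart.

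Per length of TU, the members differed widely in untreated cells. These values depend on how far a TU runs beyond its gene. The gene took up 18.0% of the Ier2 TU, 7.39% of that of Junb and 24.0% of that of Jund. For Ier2, reads running on from Nacc1 may be included. Ier2 stood highest at 4.61 CPM per kb, above the upper quartile of 1.79 CPM per kb of all tested TUs with a symbol, and Junb followed at 1.09. Ier5 at 0.780 lay at the median of those TUs, which was 0.777 CPM per kb. Atf3 at 0.615 and Jund at 0.596 CPM per kb differed by less than the spread between their replicates. Of the tested members Fos at 0.238 and Jun at 0.0761 CPM per kb stood lowest. Jun lay below the lower quartile of 0.240. Fos lay at that quartile, and its NT libraries were far apart, at 0.808 and 1.60 CPM. Egr1, which was not tested, lay between Fos and Jun at 0.0966.

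The main question was which of these genes rose after SOX2 was removed and whether a rise lasted to 6 h. The TU of Junb, most of which lies outside the gene, rose within 0.5 h and was below its starting level at 6 h. Atf3 and Jun rose and were still high at 6 h, though Jun was lasting in only 8 of 17 alternative analyses. In the main fit Fos and Ier5 passed the test at 2 h alone, and Jund and Ier2 at no time. With the replicate number as a block, which the labels do not name as a batch, Fos at 1 h was also called. So were Ier5, Jund and Ier2 at 6 h, the last as a fall. At 0.5 h, 2 of the 7 tested members (Junb and Atf3) were called up and 0 down, against 0.527% of all tested TUs called up and 0.787% down. At 1 h the same 2 members were called up and 0 down, against 2.15% up and 3.61% down. At 2 h, 4 members (Fos, Jun, Atf3 and Ier5) were called up and 0 down, against 4.26% up and 5.57% down. At 6 h, 2 members (Jun and Atf3) were called up and 1 (Junb) down, against 6.61% up and 9.2% down.

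The counts of 0 down at 0.5, 1 and 2 h in edgeR were also 0 at an unadjusted p under 0.05 and in DESeq2. DESeq2 called 2 members up at 2 h and 1 at 6 h. With 1 library left out, the members called up in edgeR numbered 1 to 2 at 0.5 h, 2 to 4 at 2 h and 1 to 3 at 6 h. The median log2 fold change of the 7 members was 0.49, 0.64, 0.95 and 0.58 at 0.5, 1, 2 and 6 h, beside -0.022, -0.043, -0.040 and -0.036 over all tested TUs. The joint test over the 4 times called 4 of the 7 members (Jun, Junb, Atf3 and Ier5), against 12.3% of all TUs. All 4 comparisons share the same 2 NT libraries. Scaling by total counts in place of TMM moved the median over all TUs by at most -0.116 on the log2 scale, at 2 h.

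**Figure D2:**
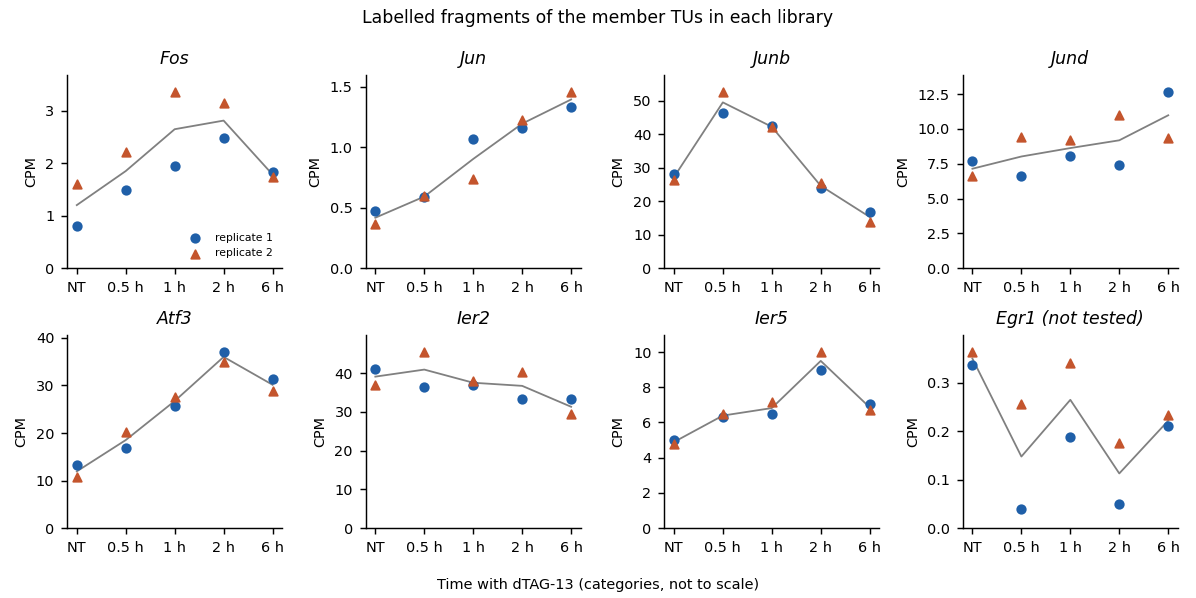
CPM of each member TU in every library (circles, replicate 1; triangles, replicate 2; grey line, mean of the 2), with times drawn as even steps and each panel on its own axis from 0. Junb peaks at 0.5 h and ends below NT, Atf3 and Jun stay above NT from 0.5 h on, and the 2 replicates of Fos and Jund lie far apart in several groups.

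Direct tests of 6 h against the earlier times then separated rises that had gone from rises that had not. Against 0.5 h, 2 members (Jun and Atf3) were higher at 6 h and 1 (Junb) lower, beside 3.81% of all TUs higher and 5.67% lower. Against 1 h, 0 members were higher and 1 (Junb) lower, beside 1.96% higher and 2.92% lower. Against 2 h, 0 were higher and 1 (Junb) lower, beside 0.26% higher and 0.517% lower. Both counts of 0 were also 0 at an unadjusted p under 0.05 and in DESeq2.

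Junb, the Jun-family subunit that is often set against c-Jun in its effect on growth, was the only member with a brief rise by these tests. Its TU held 28.0 and 26.2 CPM in NT, 46.4 and 52.5 at 0.5 h, 42.3 and 42.0 at 1 h, 23.8 and 25.3 at 2 h, and 16.6 and 13.9 at 6 h. No depleted group overlapped NT: those at 0.5 and 1 h lay above it and those at 2 and 6 h below it. It rose 1.82-fold at 0.5 h (log2 fold change 0.86 ± 0.12 SE, adjusted p = 0.00146, edgeR) and 1.55-fold at 1 h (0.64 ± 0.12, adjusted p = 0.00386). At 2 h the change was -0.14 ± 0.12 (adjusted p = 0.503), and at 6 h the TU fell to 0.562 of its NT level (-0.83 ± 0.13, adjusted p = 0.000342).

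From 0.5 to 6 h Junb fell by 1.69 on the log2 scale (SE 0.12, adjusted p = 1.05e-06). It also fell from 1 to 6 h (-1.47 ± 0.12, adjusted p = 1.01e-05) and from 2 to 6 h (-0.69 ± 0.12, adjusted p = 0.0168). The last of these calls was lost without 2 h replicate 2 (-0.61, adjusted p = 0.113), without 6 h replicate 2 (-0.56, adjusted p = 0.177) or in a fit of the 2 groups alone (-0.67, adjusted p = 0.0547). Junb remained brief under all 17 alternatives of fit, filter, scaling or library. On the opposite strand 2 TUs overlapped it: Prdx2, with log2 fold changes between -0.30 and 0.17, and Hook2, between -0.24 and 0.27, and neither was called at any time. Rnaseh2a, whose TU began 11 bp past the end of the Junb TU on the same strand, showed 0.21 ± 0.10 at 0.5 h and 0.27 ± 0.10 at 1 h and was not called either (adjusted p = 0.566 and 0.177).

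Jun, which encodes c-Jun, the founding member of its family, was the least transcribed of the tested members, with a TU of 5 to 25 fragments per library. Its fragments numbered 7 and 5 in NT, 15 and 7 at 0.5 h, 17 and 13 at 1 h, 23 and 21 at 2 h, and 19 and 25 at 6 h. In CPM, the mean went from 0.417 ± 0.0762 (SD, n = 2) in NT to 0.592 ± 0.00939, 0.903 ± 0.231, 1.20 ± 0.0456 and 1.40 ± 0.0857 at 0.5, 1, 2 and 6 h. Every depleted library of Jun stood above both NT libraries in CPM. The rise passed the test at 2 h (log2 fold change 1.49 ± 0.41, adjusted p = 0.031) and at 6 h (1.72 ± 0.41, adjusted p = 0.00964), but not at 0.5 h (0.49 ± 0.46, adjusted p = 0.865) or 1 h (1.09 ± 0.43, adjusted p = 0.193).

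Jun was also higher at 6 than at 0.5 h (1.23 ± 0.36, adjusted p = 0.0452). These calls rest on few fragments. That at 2 h was lost without either NT library or either 2 h library (1.33 to 1.69, adjusted p from 0.0693 to 0.181), in DESeq2 (1.54, adjusted p = 0.132), with total counts (1.38, adjusted p = 0.0527) and in a fit of the 2 groups alone (1.49, adjusted p = 0.0636). That at 6 h was lost without NT replicate 2 (1.58, adjusted p = 0.0766), without 6 h replicate 2 (1.65, adjusted p = 0.0619) and in DESeq2 (1.77, adjusted p = 0.0634). The contrast of 6 with 0.5 h was lost without any 1 of the 0.5, 1 or 6 h libraries or without 2 h replicate 1 (1.17 to 1.30, adjusted p from 0.0518 to 0.189), in DESeq2 (1.26, adjusted p = 0.205), and with total counts, no count filter or the 2 groups alone (adjusted p from 0.0552 to 0.0659). On the opposite strand, the TU of the antisense transcript Junos overlapped that of Jun and was not called, with log2 fold changes of 0.20 ± 0.49, 0.72 ± 0.47, 0.71 ± 0.46 and 0.91 ± 0.46.

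Jund, the Jun-family member that is present in most resting cells, was called at no time. It held 7.67 and 6.61 CPM in NT, 6.63 and 9.41 at 0.5 h, 8.03 and 9.22 at 1 h, 7.38 and 10.99 at 2 h, and 12.6 and 9.32 at 6 h. The groups at 0.5 and 2 h overlapped NT and those at 1 and 6 h lay above it. Its log2 fold change was 0.13 ± 0.23, 0.27 ± 0.23, 0.35 ± 0.23 and 0.61 ± 0.23 in order of time. The last had an adjusted p of 0.0844, and of 0.0348 with the replicate number as a block. That value passed the test without 2 h replicate 1 (0.61, adjusted p = 0.0494) or without 2 h replicate 2 (0.63, adjusted p = 0.0432), and in a fit of the NT and 6 h libraries alone (0.63, adjusted p = 0.0304).

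Fos, the subunit that needs a Jun partner to bind DNA, held 12 and 22 fragments in NT, 38 and 26 at 0.5 h, 31 and 59 at 1 h, 49 and 54 at 2 h, and 26 and 30 at 6 h. In CPM that is 1.20 ± 0.559 (SD, n = 2) in NT and 1.85 ± 0.524, 2.65 ± 1.00, 2.82 ± 0.480 and 1.79 ± 0.0561 at the 4 times, and the 2 NT libraries differed from each other by more than the NT mean did from the means at 0.5 and 6 h. The 0.5 h group overlapped NT and the other groups lay above it. Only 2 h passed the test (log2 fold change 1.23 ± 0.37, adjusted p = 0.0478). At 0.5 h the value was 0.57 ± 0.39 (adjusted p = 0.759), at 1 h 1.16 ± 0.37 (adjusted p = 0.0951) and at 6 h 0.58 ± 0.40 (adjusted p = 0.351).

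The drop of Fos from 2 to 6 h was not called (-0.65 ± 0.34, adjusted p = 0.507), nor was the joint test over time (adjusted p = 0.133), so whether its rise had ended by 6 h was not resolved. Without NT replicate 1 the change at 2 h was 0.81 (adjusted p = 0.252), and without NT replicate 2 it was 1.79 (adjusted p = 0.0579). The call was also lost without 1 of the 2 h libraries (1.04 and 1.40, adjusted p = 0.135 and 0.0792), without 1 of the 6 h libraries (1.23 each, adjusted p = 0.0644 and 0.0653), in DESeq2 (1.27, adjusted p = 0.0627) and with total counts (1.12, adjusted p = 0.0905).

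Atf3, a bZIP factor of the ATF family that pairs with Jun proteins and answers to many stresses, had the smaller adjusted p at 6 h of the 2 lasting rises. Its TU held 13.2 and 10.7 CPM in NT, 16.9 and 20.2 at 0.5 h, 25.8 and 27.7 at 1 h, 37.0 and 35.0 at 2 h, and 31.4 and 28.9 at 6 h. All 8 depleted libraries lay above both NT libraries. It rose 1.53-fold at 0.5 h (log2 fold change 0.62 ± 0.14, adjusted p = 0.0445), 2.24-fold at 1 h (1.16 ± 0.14, adjusted p = 0.000128), 3.01-fold at 2 h (1.59 ± 0.14, adjusted p = 3.66e-06) and 2.52-fold at 6 h (1.33 ± 0.14, adjusted p = 1.15e-05).

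Atf3 was higher at 6 than at 0.5 h (0.71 ± 0.13, adjusted p = 0.00271), whereas 6 h differed from neither 1 h (0.17 ± 0.13, adjusted p = 0.511) nor 2 h (-0.26 ± 0.13, adjusted p = 0.47) by the test. The call at 0.5 h was lost without any 1 of the NT, 0.5, 1 or 6 h libraries (0.48 to 0.78, adjusted p from 0.0564 to 0.344), with total counts (0.59, adjusted p = 0.0876) and in a fit of the 2 groups alone (0.64, adjusted p = 0.0832). The calls at 1, 2 and 6 h and the class of a lasting rise remained under all 17 alternatives. A TU antisense to the Atf3 start, with a mean of 20.1 fragments per library, was not called, with log2 fold changes of 0.11 to 0.43. The Atf3 promoter was the member promoter that held TTGCATCA, printed in capitals above.

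**Figure D3:**
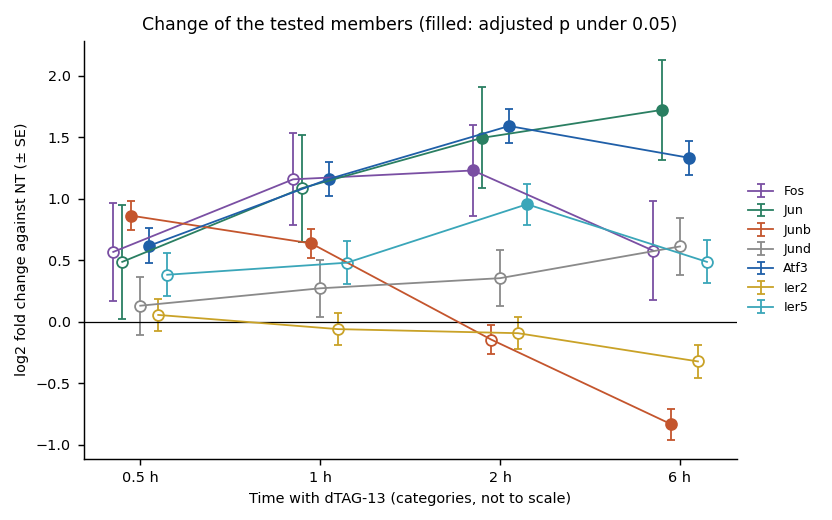
Log2 fold change against NT (± SE) of the 7 tested members at 0.5, 1, 2 and 6 h, times drawn as even steps. Filled points passed the test at adjusted p under 0.05: Junb is filled above 0 at 0.5 and 1 h and below 0 at 6 h, Atf3 is filled at every time, and Fos and Ier5 at 2 h alone.

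Ier5 and Ier2 encode related nuclear proteins without a bZIP domain. Ier5 held 4.98 and 4.80 CPM in NT, 6.28 and 6.50 at 0.5 h, 6.46 and 7.17 at 1 h, 8.999 and 9.99 at 2 h, and 7.02 and 6.70 at 6 h, with every depleted library above both NT libraries. It rose 1.94-fold at 2 h (log2 fold change 0.95 ± 0.17, adjusted p = 0.0017) and did not pass the test at 0.5 h (0.38 ± 0.17, adjusted p = 0.493), 1 h (0.48 ± 0.17, adjusted p = 0.139) or 6 h (0.49 ± 0.17, adjusted p = 0.0712). Its drop from 2 to 6 h was not called (-0.47 ± 0.16, adjusted p = 0.245), so its return was not resolved. With the replicate number as a block the 6 h value was called (0.48, adjusted p = 0.0342), and the rise then counted as lasting. The joint test called it (adjusted p = 0.0115), and the call at 2 h remained under all 17 alternatives.

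Ier2 had the highest CPM per length of TU among the members. It held 41.1 and 37.1 CPM in NT, 36.4 and 45.4 at 0.5 h, 36.9 and 38.1 at 1 h, 33.2 and 40.2 at 2 h, and 33.2 and 29.4 at 6 h. The groups at 0.5, 1 and 2 h overlapped NT and that at 6 h lay below it. Its log2 fold change was 0.06 ± 0.13, -0.06 ± 0.13, -0.09 ± 0.13 and -0.32 ± 0.13, and none passed the test in the main fit (adjusted p = 0.119 at 6 h). With the replicate number as a block the 6 h value passed (-0.32, adjusted p = 0.0499), as did the fall from 0.5 to 6 h (-0.37, adjusted p = 0.0312). From 0.5 to 6 h the difference was -0.38 ± 0.13 (adjusted p = 0.0924), and it passed the test without 0.5 h replicate 1 (-0.54, adjusted p = 0.0446). The gene takes up 18.0% of this TU, and the Nacc1 TU that ends just before it showed -0.10 ± 0.09 at 6 h.

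Which other TUs shared the course of a called member was read from log2 CPM over the 10 libraries, as a description. Of 11937 other TUs with a symbol and a mean of at least 50 fragments, those closest to Junb were Bcl3 (r = 0.981), Rasgef1a (0.977) and Gm41046 (0.975). Those closest to Atf3 were Scarb1, a lipoprotein receptor (0.982), Lpcat3, a phospholipid acyltransferase (0.975), and Vps37b (0.972). Ier5 was closest to Lipg (0.960), Gm31560 (0.951) and Zcchc10 (0.947). Jun, searched against 11938 TUs, was closest to Baiap2l1 (0.968), 4921525O09Rik (0.965) and Sptb (0.965). The points share libraries and depth, and the highest of so many correlations is high for any TU with a smooth course.

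Few of the other AP-1 and related bZIP genes were called. Of 13 listed, 7 were tested, and 1, Batf3, was called up at 1 h and again at 6 h, beside 2.15% and 6.61% of all tested TUs. In edgeR 0 were called up at 0.5 and 2 h (1 and 3 at an unadjusted p under 0.05, and 0 and 1 in DESeq2), beside 0.527% and 4.26% of all TUs. In edgeR 0 were called down at any time, likewise 0 at an unadjusted p under 0.05 and in DESeq2, beside 0.787% to 9.2% of all TUs. Counts of 0 among 7 genes are near these shares. Batf3, a partner of Jun in immune cells, held 1 and 6 fragments in NT, 15 and 11 at 0.5 h, 18 and 28 at 1 h, 22 and 10 at 2 h, and 15 and 16 at 6 h. Its log2 fold change was 2.44 ± 0.59 at 1 h (adjusted p = 0.0225) and 1.98 ± 0.63 at 6 h (adjusted p = 0.0454). Without NT replicate 1 these were 1.65 (adjusted p = 0.16) and 1.18 (adjusted p = 0.219), both calls were lost also without either 1 h library, and the second without either 6 h library, in DESeq2 (2.04, adjusted p = 0.0839) and with total counts (1.89, adjusted p = 0.0564). DESeq2 gave no adjusted p for Batf3 at 1 h. The median over the list was 0.15, 0.29, 0.21 and 0.14 in order of time.

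Other immediate early genes went in both directions. Of 27 listed, 21 were tested, of which 2 were called up and 0 down at 0.5 h (8 up and 4 down at an unadjusted p under 0.05, and also 2 and 0 in DESeq2), beside 0.527% and 0.787% of all tested TUs. At 1 h 3 were up and 4 down (2.15% and 3.61% of all TUs), at 2 h 6 up and 5 down (4.26% and 5.57%, with 6 and 2 in DESeq2), and at 6 h 6 up and 7 down (6.61% and 9.2%). Zfp36, which encodes an mRNA-decay factor, and Csrnp1, a nuclear protein, were called up at all 4 times. The median over the list went from 0.13 and 0.27 at 0.5 and 1 h to -0.16 and -0.19 at 2 and 6 h.

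Zfp36 held 8.21 and 7.41 CPM in NT, 13.2 and 16.0 at 0.5 h, 15.4 and 13.7 at 1 h, 12.2 and 13.3 at 2 h, and 12.9 and 10.4 at 6 h. Its log2 fold change was 0.89 ± 0.16 at 0.5 h (adjusted p = 0.013) and 0.57 ± 0.17 at 6 h (adjusted p = 0.0319). The 0.5 h call was lost without NT replicate 2 (0.82, adjusted p = 0.167), NT replicate 1 (0.96, adjusted p = 0.0644) or 0.5 h replicate 2 (0.77, adjusted p = 0.102). The 6 h call was lost without either NT library or 6 h replicate 1 (0.42 to 0.66, adjusted p from 0.0535 to 0.218) and with total counts (0.48, adjusted p = 0.103). Csrnp1 went from 40.0 ± 4.95 CPM (SD, n = 2) in NT to 61.0 ± 0.797 at 0.5 h and 57.3 ± 6.72 at 6 h. Its log2 fold change at these times was 0.61 ± 0.12 (adjusted p = 0.0148) and then 0.52 ± 0.12 (adjusted p = 0.00681). Without NT replicate 2 the Csrnp1 values were 0.49 (adjusted p = 0.21) and 0.42 (adjusted p = 0.0868); the 0.5 h call was lost also without either 0.5 h library, and the 6 h call without 6 h replicate 1 (0.41, adjusted p = 0.0839). The calls of both genes at 1 and 2 h were lost without NT replicate 2 (adjusted p from 0.0533 to 0.117), those at 1 h also without 1 of the 1 h libraries, and that of Zfp36 at 2 h also with total counts (adjusted p = 0.0603).

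Arc, an immediate early gene best known from neurons, went the other way. It held 8.08 and 6.98 CPM in NT, 3.12 and 4.45 at 0.5 h, 2.51 and 1.99 at 1 h, 1.72 and 3.04 at 2 h, and 2.04 and 2.39 at 6 h, and no depleted library reached the NT range. Its log2 fold change was -1.04 ± 0.26 at 0.5 h (adjusted p = 0.0672), which passed the test in a fit of the 2 groups alone (-1.02, adjusted p = 0.04) and without either 2 h library (adjusted p = 0.0288 and 0.0297). It was called down after 1 h (-1.74 ± 0.27, adjusted p = 0.0011), 2 h (-1.68 ± 0.27, adjusted p = 0.00085) and 6 h (-1.76 ± 0.28, adjusted p = 0.000494). The following genes were singled out after their values were seen. Gadd45g, a growth-arrest gene, was the other gene called up at 1 h (1.29 ± 0.35, adjusted p = 0.0396). Sik1, Klf6 and Ier5l were the others called down at 1 h (-0.70 ± 0.15, -0.58 ± 0.13 and -0.72 ± 0.18). At 2 h Sik1, Ier5l, Myc and Zfp36l1 were called down beside Arc, with Myc at -1.17 ± 0.31 (adjusted p = 0.0263). In DESeq2 Ier5l, Myc and Zfp36l1 were not called then (adjusted p = 0.0506, 0.157 and 0.0819). Apart from Arc, each of these falls and the rise of Gadd45g was lost without at least 1 of the NT libraries, with adjusted p up to 0.297. Beside those of Arc, the calls that remained in every alternative in which they were tested were the rise of Gadd45g at 6 h (1.91 ± 0.33, adjusted p = 0.00113), the falls of Myc (-2.07 ± 0.36, adjusted p = 0.00108) and Zfp36l1 (-0.70 ± 0.11, adjusted p = 0.00036) at 6 h, the rise of Phlda1 at 2 h (1.52 ± 0.29) and 6 h (1.83 ± 0.29), and that of Plk3, a polo-like kinase, at 2 h (1.01 ± 0.19).

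Of the MAP kinase phosphatases, which switch off the kinases upstream of Fos and Jun, 8 of 10 were tested. None was called at 0.5 h in edgeR (1 down at an unadjusted p under 0.05, and 0 in DESeq2), beside 0.527% of all TUs up and 0.787% down, and 1, the nuclear phosphatase Dusp5, was called up at 1 h, beside 2.15% of all TUs. Its CPM went from 2.85 ± 0.438 (SD, n = 2) in NT to 5.28 ± 0.783 at 1 h (log2 fold change 0.88 ± 0.23, adjusted p = 0.035) and was 2.55 ± 0.563 at 6 h (-0.18 ± 0.25, adjusted p = 0.679). The Dusp5 call was lost without any 1 of the NT or 1 h libraries (0.72 to 1.07, adjusted p from 0.0653 to 0.302), in DESeq2 (0.91, adjusted p = 0.0686) and with total counts (0.79, adjusted p = 0.0766). Also called, and named after their values were seen, were Dusp10, a phosphatase of stress kinases, up at 2 h (0.75 ± 0.11, adjusted p = 0.000292) and 6 h (0.80 ± 0.11, adjusted p = 0.000112), Dusp9 up at 6 h (0.99 ± 0.18, adjusted p = 0.00159) and Dusp1 down at 6 h (-0.71 ± 0.13, adjusted p = 0.00176). The list thus had 1 up at 2 h, beside 4.26% of all TUs, and 2 up and 1 down at 6 h, beside 6.61% and 9.2%.

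Genes of the integrated stress response, in which ATF4 acts upstream of Atf3, gave 9 tested of 10. In edgeR 0 were called up at any time (0, 0, 1 and 0 at an unadjusted p under 0.05, and 0 in DESeq2), and 0 down at 0.5, 1 or 2 h (3, 2 and 1 at an unadjusted p under 0.05, and 1, 0 and 0 in DESeq2). Beside 0.527% to 6.61% of all TUs up and 0.787% to 5.57% down, counts of 0 among 9 genes are near the background. Their median was -0.25, -0.17, -0.07 and -0.42. Sesn2 (-0.42 ± 0.10, adjusted p = 0.0109) and Ppp1r15a (-0.49 ± 0.13, adjusted p = 0.0221), both named after their values were seen, were the 2 called down at 6 h, beside 9.2% of all TUs. The calls of Sesn2 and Ppp1r15a were each lost without single NT or 6 h libraries, with adjusted p up to 0.0949 and 0.147, and that of Ppp1r15a also in DESeq2 (-0.46, adjusted p = 0.0645), which called 1 of the 2.

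**Figure D4:**
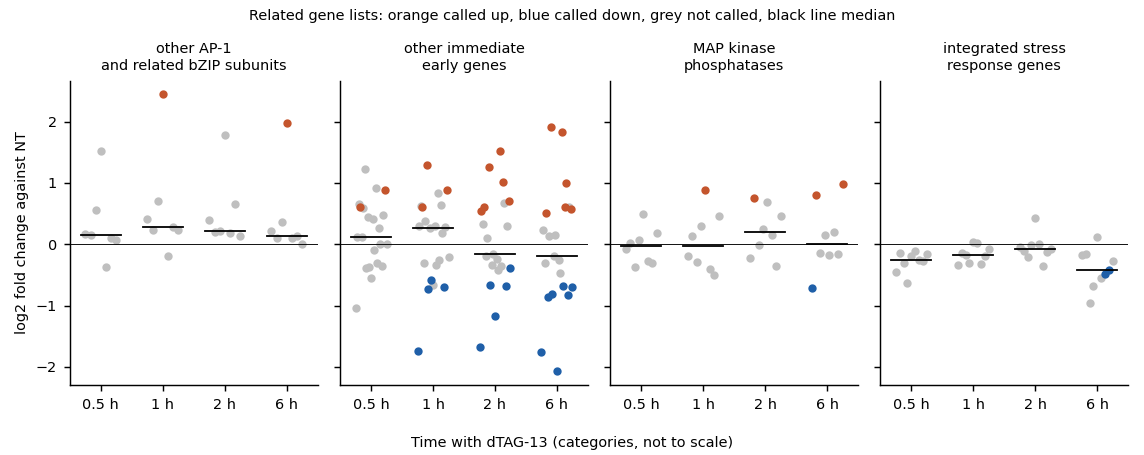
Log2 fold change against NT of the tested genes in 4 related lists at 0.5, 1, 2 and 6 h, 1 point per gene, with called genes in orange (up) or blue (down) and the list median as a black line. The other immediate early genes hold calls on both sides of 0 from 1 h on, and the integrated stress response genes hold no call above 0.

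The TUs close to the members were then counted. Within 50 kb of the 8 member TUs, on either strand, 37 further TUs were tested, of which 6 overlapped a member. In edgeR, 0 were called up at 0.5, 1, 2 or 6 h (1, 4, 1 and 0 at an unadjusted p under 0.05, and 0 in DESeq2), beside 0.527%, 2.15%, 4.26% and 6.61% of all tested TUs. At 6 h 3 were called down, a share near the 9.2% of all TUs: an extragenic TU on the strand opposite Fos and 29385 bp away (-1.64 ± 0.43, adjusted p = 0.0164), and near Jund the TU of Lsm4, a splicing factor (-0.43 ± 0.14, adjusted p = 0.0475), and a TU antisense to a gene body (-0.88 ± 0.22, adjusted p = 0.0146). DESeq2 called 0 of these 3 (adjusted p = 0.0505, 0.0957 and 0.0599). Without NT replicate 2 they were -1.27 (adjusted p = 0.172), -0.23 (adjusted p = 0.447) and -0.69 (adjusted p = 0.147). They were lost as well without 6 h replicate 2, the Jund neighbours without 6 h replicate 1, and Lsm4 also without either 1 h library or 0.5 h replicate 2, with RLE factors (adjusted p = 0.0606) and with no count filter (adjusted p = 0.0703).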

How the data were processed

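TT_chem_seq was done on 10 libraries, 5 groups of 2 replicates per the labels. The authors deposited raw fragment counts per TU. Per the methods of the study, reads were aligned to mm10 with BWA 0.7.17-r1188, filtered on mapping quality with SAMtools 1.10, cleared of duplicates with Picard 2.12.0 and split by strand, and TUs were defined by a hidden Markov model on all data pooled per strand, associated with RefSeq genes and counted. Since TU ends follow coverage, a TU can hold RNA from beyond its gene. Deposited TU starts are likely to be 1 bp low.

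The members and lists were chosen with earlier results of these data known. Of the related lists tested, 1 is not reported here. The filter kept TUs in which 2 or more libraries exceeded 10 fragments, and these were fitted in edgeR 4.0.16 (R 4.3.3) with TMM factors, 1 coefficient per group over all 10 libraries and the quasi-likelihood F-test. Each time was compared with NT, 6 hpd with the earlier times, and all 4 times jointly. Calls used a Benjamini-Hochberg adjusted p under 0.05 over 28459 TUs. Each SE was taken as the absolute log2 fold change divided by the root of F. CPM used TMM factors, and log2 CPM a prior count of 2. The code was tested on simulated data. Precision depends on depth, which was 11131490 to 25854106 fragments per library. Replicates differed by more than sampling noise in every group (chi-square divided by its degrees of freedom, 2.69 to 9.03), so none was a duplicate. Nothing says that replicates were separate cultures, so p-values measure the spread between these libraries, which may be technical.

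A rise was lasting if called at 0.5, 1 or 2 hpd and at 6 hpd, and brief if called early, not at 6 hpd, with 6 hpd called lower. Named genes were the 10 members, per list the gene of smallest p in each direction at 1 hpd among those called and any called at all 4 times, neighbouring TUs called at any time within 50 kb, and for members called jointly the 3 TUs closest in log2 CPM. Alternatives were DESeq2 1.42.0, RLE factors, total counts, all TUs without the filter, only TUs averaging 50 fragments, only the 2 groups compared, the replicate number as a block, and each library left out. Member symbols and positions were matched to RefSeq on GRCm38.p6.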

Additional observations from a re-analysis of the deposited data

Results flagged for a closer look

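Changes of a member that differed between 6 h and an earlier time by a direct edgeR test are given here. Junb differed from 0.5 to 6 h by -1.69, from 1 to 6 h by -1.47 and from 2 to 6 h by -0.69 on the log2 scale. Atf3 differed from 0.5 to 6 h by 0.71 and Jun by 1.23 on the same scale. Groups of 2 are too small for a check of single outlying libraries.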

How the results depend on the processing

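Under the 17 alternatives, Junb kept a brief rise and Atf3 a lasting rise in 17 of 17, Ier5 an early rise with its return not resolved in 16, Jun a lasting rise in 8 and Fos an early rise in 8. Members called up at 0.5 h numbered 1 with total counts and with only the 2 groups compared. Those up at 2 h numbered 2 in DESeq2, with total counts and at a mean of at least 50 fragments. Those up at 6 h numbered 1 in DESeq2 and at a mean of at least 50 fragments. Those higher at 6 than at 0.5 h numbered 1 in DESeq2, with total counts, with no count filter, at a mean of at least 50 fragments and with only the 2 groups compared. Those lower at 6 than at 2 h numbered 0 with only the 2 groups compared. Lasting rises numbered 1 in DESeq2, with total counts, at a mean of at least 50 fragments and with only the 2 groups compared, and unresolved rises 1 in the first 3 of these. At a mean of at least 50 fragments Fos and Jun were not tested. Of the other immediate early genes, 5 were called down at 2 h in edgeR and 2 in DESeq2. The cause of the other shifts was not tested.

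With 1 library left out, members called up ranged from 1 to 2 at 0.5 h, from 2 to 4 at 2 h and from 1 to 3 at 6 h, those higher at 6 than at 0.5 h from 1 to 2, those lower at 6 than at 0.5 h from 1 to 2 and than at 2 h from 0 to 1, lasting rises from 1 to 2 and unresolved rises from 1 to 2.

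Replicate numbers are not said to mark a shared batch. The differences between replicates 1 and 2 correlated at r = 0.0742 to 0.291 over the 10 pairs of groups, and at 0.0544 to 0.663 over TUs averaging 50 fragments, with the lowest values between 6 h and 0.5 or 2 h. With the replicate number as a block, 4 members were called up and 2 down at 6 h, 2 were lower at 6 than at 0.5 h and 1 rise was unresolved. In that fit Jun, Atf3 and Ier5 had lasting rises, and Jund was called up at 6 h only. Among members, the block added calls of Fos at 1 h (1.146), of Jund (0.61), Ier5 (0.48) and Ier2 (-0.32) at 6 h, and of Ier2 from 0.5 to 6 h (-0.37), and changed no other member call. Outside the members it added calls of Arc at 0.5 h (-1.05) and of Batf3 (1.80) and Dusp5 (0.70) at 2 h.

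Signs turned only for changes that were not called. With 1 library left out, Fos from 0.5 to 6 h ranged from -0.32 to 0.27, Jund from -0.096 to 0.40 at 0.5 h and from -0.0072 to 0.60 between 2 and 6 h, Ier2 from -0.091 to 0.22 at 0.5 h, from -0.11 to 0.035 at 1 h and from -0.25 to 0.040 at 2 h, Ier5 from -0.066 to 0.085 between 1 and 6 h, and Dusp5 from -0.39 to 0.045 at 6 h. Fos from 0.5 to 6 h was -0.051 with total counts and -0.049 with the replicate block, and Ier5 from 1 to 6 h was -0.031 at a mean of at least 50 fragments. With 5 to 59 fragments per library, Jun and Fos are limited by depth, and Egr1 had too few fragments to test.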
